A study of Mus musculus with 18 samples.

Results

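Bmp4 and 9 genes known to respond to bone morphogenetic protein (BMP) signalling, Id1, Id2, Id3, Id4, Smad6, Smad7, Bambi, Msx1 and Msx2, were followed as mouse embryonic stem cells differentiated towards primordial germ cells. They were listed by name as a BMP gene set, with earlier results of these data known. All 10 were among the 25239 genes of the count table, and all 10 were among the 16582 genes with enough counts to be tested. RNA was sequenced in 18 libraries of the embryonic stem cell line E14Tg2a, 2 for each of 9 conditions. Cells were wild type or TKO, a single clone in which Tet1, Tet2 and Tet3, the enzymes that oxidise 5-methylcytosine, were deleted with Cas9. All cells were first kept in 2i/LIF and made into epiblast-like cells (EpiLCs) with Activin A and Fgf. The EpiLCs were then aggregated in suspension in GK15 medium, either with nothing further or with the cytokines BMP4, BMP8a, SCF, LIF and EGF, which together induce primordial germ cell-like cells (PGCLCs).

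The wild-type conditions were EpiLCs, days 2 and 6 without cytokines and day 6 with cytokines. The TKO conditions were EpiLCs and days 2 and 6, each with and without cytokines. No wild-type day 2 sample with cytokines is used here. The study describes the wild-type cells with cytokines as sorted for SSEA1 and CD61 and all other populations as whole aggregates, while the deposited labels call each of these samples aggregates. The cytokine comparison in wild-type cells is therefore also one of sorted cells with whole cultures. BMP4 was 1 of 5 factors given together, and the effect of BMP4 alone was not tested. It was given as protein, so the Bmp4 counts are transcripts of the cells themselves.

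BMP ligands bind type I and type II serine/threonine kinase receptors, and the type I receptor phosphorylates SMAD1, SMAD5 and SMAD9. These bind SMAD4 and enter the nucleus, where Id genes are among the best known direct targets, while SMAD6, SMAD7 and BAMBI are made in response to the signal and inhibit it. In the embryo, BMP4 from the extraembryonic ectoderm induces primordial germ cells in the epiblast, and BMP ligands later pattern the dorsal neural tube, where Msx and Id genes are expressed.

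In the RefSeq annotation of GRCm38.p6, Bmp4 lies at chr14:46383525-46390669, Id1 at chr2:152736251-152737410, Id2 at chr12:25093799-25096092, Id3 at chr4:136143822-136145392 and Id4 at chr13:48261116-48266028. Smad6 lies at chr9:63953076-64022085, Smad7 at chr18:75367365-75395935, Bambi at chr18:3507011-3516404, Msx1 at chr5:37820491-37824585 and Msx2 at chr13:53466881-53472780. Bmp4, Id4 and Msx1 overlap other counted genes (Gm15217, A330033J07Rik and Msx1os), and fragments on more than 1 gene were not counted, so some of their own fragments can be missing from their counts.

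RefSeq promoters were matched for 7 of the 10 genes, all but Id1, Smad7 and Bambi. The 250 bases before the annotated start were searched on both strands for GGCGCC, a GC-rich element known to be bound by SMAD1 and SMAD5, and for CAGAC, the SMAD box. The 3 promoters with a match, all of Id genes, are shown with the matched letters in capitals, 5′ to 3′ on the strand of the gene.

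Id2 (chr12:25096093-25096342, minus strand): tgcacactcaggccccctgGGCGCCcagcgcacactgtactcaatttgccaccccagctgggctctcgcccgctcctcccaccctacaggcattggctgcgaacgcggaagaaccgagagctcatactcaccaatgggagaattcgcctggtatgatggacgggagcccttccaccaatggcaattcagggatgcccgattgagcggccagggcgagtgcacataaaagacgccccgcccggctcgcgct
Id3 (chr4:136143572-136143821, plus strand): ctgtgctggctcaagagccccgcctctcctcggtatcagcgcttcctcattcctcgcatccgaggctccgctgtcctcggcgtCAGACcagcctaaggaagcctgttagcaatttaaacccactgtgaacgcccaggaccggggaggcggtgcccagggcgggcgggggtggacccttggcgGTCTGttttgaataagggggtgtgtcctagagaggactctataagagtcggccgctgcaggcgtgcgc
Id4 (chr13:48260866-48261115, plus strand): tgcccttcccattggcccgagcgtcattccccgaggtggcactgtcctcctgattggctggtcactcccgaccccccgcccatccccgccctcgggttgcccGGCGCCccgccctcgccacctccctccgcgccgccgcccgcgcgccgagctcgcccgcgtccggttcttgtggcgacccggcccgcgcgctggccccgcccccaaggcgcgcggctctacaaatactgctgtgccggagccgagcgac

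GGCGCC was present in 2 of 7 promoters, starting 231 bases before the start of Id2 and 148 bases before that of Id4, and in 9.59% of the 32851 RefSeq promoters searched over the same length. CAGAC was present in 1 of 7, Id3, at 167 bases and, as its reverse complement, at 68 bases before the start, and in 42.2% of all promoters. These matches describe the letters in the window.

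Total counts were 11286050 to 41257861 per library, and levels are given as counts divided by DESeq2 size factors (normalised counts). Tet1 covered 595 to 12110 normalised counts in wild-type and 504 to 1937 in TKO libraries, Tet2 125 to 4812 and 31.8 to 405, and Tet3 171 to 5849 and 54.6 to 252. These counts are per gene, and the deleted exons were not examined apart from the rest. The ribosomal locus Rn45s held 16.2 to 31.3% of counts in the 8 libraries of cytokine-free aggregates and 31.7 to 47.6% in the remaining 10. In the day 6 wild-type libraries without cytokines, 8 dorsal neural tube markers (Pax3, Pax7, Zic1, Lmx1a, Wnt1, Wnt3a, Olig3, Atoh1) summed to 1977 in replicate 1 and 10110 in replicate 2, and 8 general neural markers to 44200 and 45550. Not every dorsal marker followed its sum. The log2 fold change with against without cytokines was −8.72 with replicate 1 only and −7.85 with replicate 2 only for Pax7, so Pax7 was higher in replicate 1. For Pax3 it was −9.76 and −10.35, a small difference. Zic1, Lmx1a, Wnt1, Wnt3a, Olig3 and Atoh1 were higher in replicate 2. Several target genes also differ between these 2 libraries, and where replicate 2 decides a member's call or direction the value without it is given. In bulk RNA, more cells of a type and more RNA per cell cannot be told apart.

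**Figure D1:**
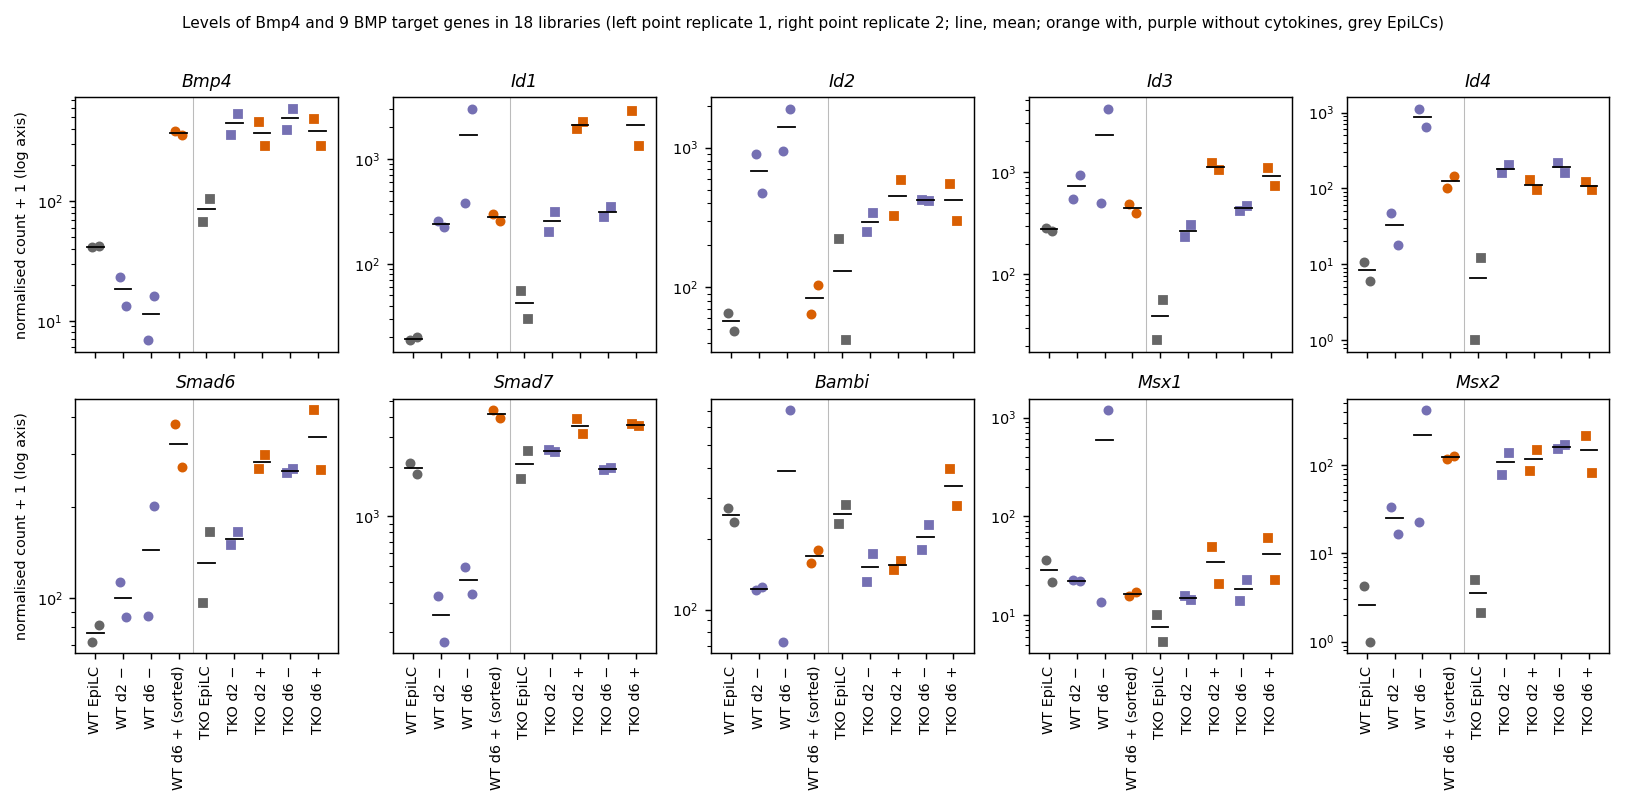
Normalised counts (plus 1, log axis) of Bmp4 and 9 BMP target genes in the 9 conditions, with wild-type cells as circles and TKO cells as squares, replicate 1 at the left and replicate 2 at the right of each condition and a line at the mean of both. In TKO libraries with cytokines Id1 stood at 1947 and 2266 (day 2) and 2871 and 1340 (day 6), against 199 and 314 (day 2) and 279 and 349.6 (day 6) without, and day 6 wild-type replicate 2 without cytokines stood above replicate 1 for Id1, Id3, Bambi, Msx1 and Msx2.

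The first comparison asked how the genes responded when TKO aggregates received cytokines, with whole aggregates on both sides. Id1 was higher with cytokines at both days, and Smad7 at day 6. At day 2, 1 of 10 members was called higher and 0 lower (an adjusted p below 0.05 by edgeR's quasi-likelihood test), where 2.05% of all genes tested were called higher and 2.47% lower. At day 6, 2 of 10 were called higher and 0 lower, against 2.56% and 3.05% of all genes. At an unadjusted p below 0.05 there were 3 members at day 2 and 2 at day 6, all of them higher. Of the 16582 genes tested, 3922 at day 2 and 3756 at day 6 were below that limit. DESeq2 called 1 and 2 members, and 1492 and 1570 of all genes. The median log2 fold change over the 10 members was 0.58 at day 2 and 0.56 at day 6, while that of all genes was −0.03 and 0.03.

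Id1 encodes an inhibitor of basic helix-loop-helix factors and is among the most direct of BMP targets. In TKO cells at day 2 its normalised counts were 199 and 314 without and 1947 and 2266 with cytokines. At day 6 they were 279 and 349.6 without and 2871 and 1340 with cytokines. The groups did not overlap at either day. The log2 fold change was 3.06 ± 0.64 (SE, adjusted p = 0.0164) at day 2 and 2.76 ± 0.63 (adjusted p = 0.0218) at day 6, with 2 libraries a group. These SEs and p-values rest on a spread estimated over all 9 conditions, not on the compared libraries alone. For Id1 and Id3 that spread includes the day 6 wild-type libraries without cytokines, which lay far apart. With any 1 of the 4 libraries left out at day 2 the log2 fold change was 2.77 to 3.41 and the adjusted p 0.074 to 0.165, so the call needed all 4. At day 6 it was 2.10 to 3.22, and the adjusted p was 0.034 without replicate 2 with cytokines and 0.127 to 0.188 without any of the other 3 libraries.

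Id3, a close relative of Id1, had 233 and 302 normalised counts without and 1221 and 1035 with cytokines at day 2 in TKO cells. At day 6 the values were 417 and 467 without and 1099 and 723 with cytokines. Both libraries with cytokines were above both without at each day, and neither difference passed the test. The log2 fold change was 2.10 ± 0.63 (adjusted p = 0.069) at day 2 and 1.06 ± 0.62 (adjusted p = 0.328) at day 6. With no filter on low counts the adjusted p at day 2 was 0.00118, and when only the 4 compared libraries were modelled it was 3.44e-06 at day 2 and 0.00946 at day 6. A model of 4 libraries leaves few degrees of freedom, so it was not the main fit. With any 1 of the compared libraries left out, the day 2 log2 fold change was 1.93 to 2.29.

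Id2, which like the other Id proteins lacks a DNA-binding domain, had 248 and 336 counts without and 321 and 581 with cytokines at day 2, and 419.9 and 414 against 548 and 295 at day 6. Its groups overlapped at both days. Id4, best known from neural progenitors and spermatogonial stem cells, had 161 and 202 counts without and 127 and 94.3 with cytokines at day 2, and 216 and 160.3 against 121 and 95.3 at day 6. Both libraries with cytokines were below both without at each day, with log2 fold changes of −0.69 ± 0.50 (adjusted p = 0.417) and −0.79 ± 0.50 (adjusted p = 0.374), which did not pass. Per kilobase of exons, the mean normalised count in day 6 TKO cells with cytokines was 1815 for Id1, 713 for Id3, 173 for Id2 and 28.1 for Id4.

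Of the inhibitors of the pathway, Smad7, whose product blocks the type I receptor, had 1902 and 1966 counts without and 3618 and 3511 with cytokines in TKO cells at day 6. The groups did not overlap, and the log2 fold change was 0.90 ± 0.25 (adjusted p = 0.0492). With any 1 of the 4 libraries left out it was 0.87 to 0.93 and the adjusted p 0.109 to 0.25. With library size alone as the scaling, which moved the median of all genes at day 6 to −0.49, it was 0.38, adjusted p = 0.333. At day 2 Smad7 had 2522 and 2450 counts without and 3901 and 3163 with cytokines, a log2 fold change of 0.52 ± 0.25 (adjusted p = 0.216).

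Smad6, which competes with SMAD4 for activated SMAD1, had 148 and 165 counts without and 266 and 298 with cytokines at day 2, a log2 fold change of 0.87 ± 0.36 (adjusted p = 0.164). At day 6 its groups overlapped, with 258 and 268 counts without and 418 and 265 with cytokines. Bambi, a pseudoreceptor without a kinase domain, had 129.7 and 172 counts without and 146 and 160.1 with cytokines at day 2. At day 6 Bambi had 179 and 227 without and 395 and 274 with cytokines, a log2 fold change of 0.74 ± 0.61 (adjusted p = 0.511). Neither gene passed the test at either day.

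The homeobox genes Msx1 and Msx2, known as targets in limb, neural crest and dorsal neural tissue, did not pass either. Msx1 had 14.5 and 13.2 counts without and 47.6 and 19.9 with cytokines at day 2, and 12.9 and 21.5 against 58.8 and 21.8 at day 6. Both libraries with cytokines were above both without at each day, at low counts (1.30 ± 1.28, adjusted p = 0.575 and 1.22 ± 1.27, adjusted p = 0.611 on the log2 scale). Msx2 had 76.8 and 137 against 85.0 and 145 at day 2 and 149.7 and 167 against 213 and 80.4 at day 6, and its groups overlapped.

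The ligand itself was expressed in TKO aggregates whether or not cytokines were given. Bmp4 had 353 and 538 counts without and 457 and 290.4 with cytokines at day 2. At day 6 it had 394 and 588 without and 480.4 and 291 with cytokines. The groups overlapped at both days, with log2 fold changes of −0.24 ± 0.36 (adjusted p = 0.731) and −0.34 ± 0.36 (adjusted p = 0.62).

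The response of TKO cells at day 6 was set against that at day 2 by the interaction of day and cytokines. The difference between the responses was −0.30 ± 0.85 for Id1, −1.04 ± 0.87 for Id3 and 0.38 ± 0.35 for Smad7 on the log2 scale. With edgeR 0 of 10 members and 0% of all genes passed, and 0 members and 717 genes had an unadjusted p below 0.05. With DESeq2 0 members and 3 genes passed.

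Some markers of other cell types also differed with the cytokines in TKO cells. Of all genes 2.47% were called lower at day 2 and 3.05% at day 6. At day 6, 7 mesoderm markers summed to 1936 and 2499 without and 554 and 449 with cytokines, with 1 of 6 tested called lower, and at day 2 to 1338 and 2271 without and 1240 and 284 with them, with 1 of 6 called lower. The 4 formative EpiLC markers summed to 3186 and 3803 without and 1807 and 1658 with them at day 6, with 2 of 4 called lower, and to 6021 and 7235 without and 4929 and 3663 with them at day 2, with 1 of 4 called lower. Of 8 neural markers 3 were called lower at each day, with a median log2 fold change of −1.35 at day 2 and −0.14 at day 6. Of 8 dorsal neural tube, 5 endoderm and 4 trophoblast markers 0 were called at either day. Of 5 neural crest markers 1 was called at day 2, lower, and 0 at day 6. The 8 PGC markers (Prdm1, Prdm14, Tfap2c, Nanog, Dppa3, Kit, Itgb3, Alpl) summed to 15880 and 14220 without and 18370 and 19790 with cytokines at day 6, with 1 of 8 called, lower. The part of these cells in the differences of the target genes was not tested.

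**Figure D2:**
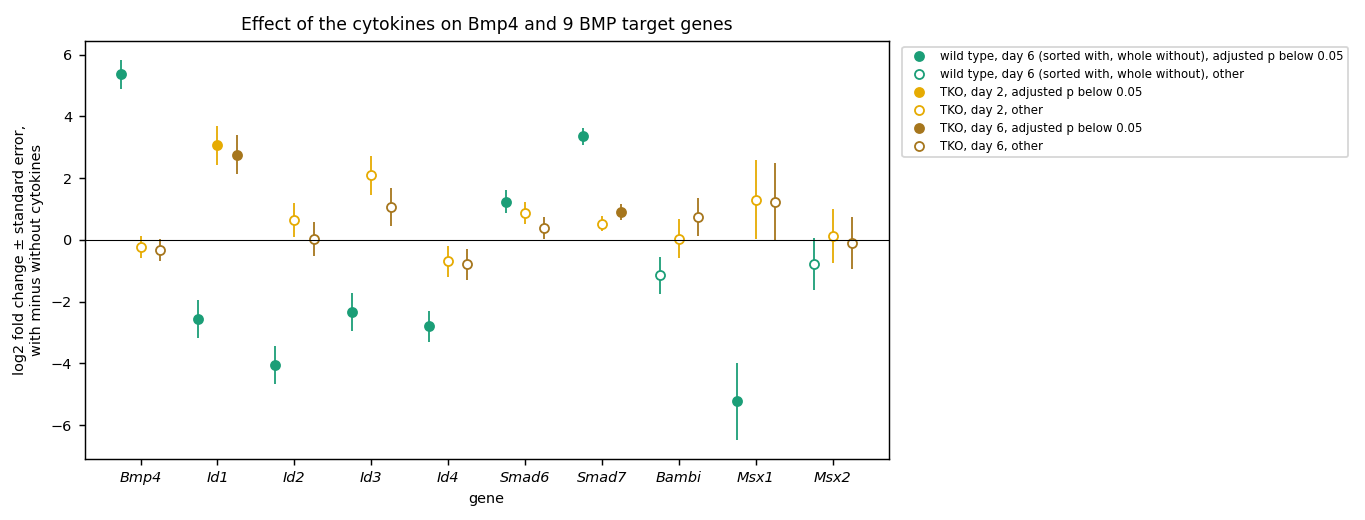
Log2 fold change (± standard error) with against without cytokines for the 10 genes in 3 comparisons, with filled points for an adjusted p below 0.05. Standard errors are from the fit of all 18 libraries, 2 a group. Id1 lay at −2.57 in wild-type cells and at 3.06 and 2.76 in TKO cells, and Bmp4 at 5.36 in wild-type cells and at −0.24 and −0.34 in TKO cells.

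In wild-type cells at day 6 the comparison was of sorted cells with cytokines against whole aggregates without. Bmp4, Smad7 and Smad6 were higher with cytokines, and all 4 Id genes and Msx1 were lower. These are 3 of 10 members called higher and 5 of 10 called lower, where 29.6% of all genes were called higher and 28.6% lower, so the members' share called higher was near that of all genes. The median log2 fold change was −1.75 over the members and 0.01 over all genes. This split rested on replicate 2 of the cultures without cytokines. Without it the median over the members was 0.79, and Msx1 (0.31), Msx2 (2.51) and Bambi (1.26) turned positive. Without replicate 1 the median over the members was −2.20.

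All 8 PGC markers were called higher with cytokines, and their sum was 1858 and 759 without and 29430 and 27500 with cytokines. All 8 neural markers were called lower, and these calls held without either library lacking cytokines. All 8 dorsal neural tube markers were called lower with both libraries, but without replicate 2 only 5 of 8 were, while Wnt3a was called higher (3.45, adjusted p = 0.00885) and Wnt1 (−2.67, adjusted p = 0.243) and Atoh1 (−1.87, adjusted p = 0.161) did not pass. The neural sum was 44200 and 45550 without and 789.9 and 673 with cytokines, with Neurog2 at 0 in replicate 2 with cytokines. The dorsal sum was 1977 and 10110 without and 61.2 and 50.8 with cytokines, with Wnt1 at 0 in replicate 1 and Pax3 in replicate 2 with cytokines. The cultures compared thus differed in neural marker content, and its part in the target genes' differences was not tested.

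Bmp4 had 5.89 and 15.1 counts without and 385 and 355 with cytokines in wild-type cells at day 6. The groups were far apart, and the log2 fold change was 5.36 ± 0.48 (adjusted p = 2.02e-07), and 4.64 to 5.99 with any 1 of the 4 libraries left out. Smad7 had 490.1 and 338 counts without and 4372 and 3915 with cytokines, a log2 fold change of 3.36 ± 0.27 (adjusted p = 7.7e-08). Smad6 had 86.1 and 200.3 counts without and 377 and 270.3 with cytokines. Its log2 fold change of 1.24 ± 0.36 (adjusted p = 0.0081) no longer passed without replicate 1 of the cultures without cytokines (0.73, adjusted p = 0.0847) or without replicate 1 with cytokines (0.98, adjusted p = 0.0756). When these 4 libraries were modelled alone, 4 of 10 members passed.

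Id2 was lower in wild-type cells with cytokines, with 938 and 1889 counts without and 63.3 and 102 with them. Its log2 fold change was −4.05 ± 0.61 (adjusted p = 4.45e-05). Id4 had 1113 and 653 counts without and 101 and 145 with cytokines, a log2 fold change of −2.80 ± 0.50 (adjusted p = 0.000208). These 2 Id genes were called lower whichever of the 4 libraries was left out.

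For Id1, Id3 and Msx1 the wild-type difference rested on 1 library without cytokines. Id1 had 383 counts in replicate 1 and 3000 in replicate 2 without cytokines, and 298 and 254 with cytokines. Id3 had 495 and 4127 without and 484 and 402 with cytokines. Msx1 had 12.7 and 1182 without and 14.6 and 16.1 with cytokines. Replicate 1 without cytokines was close to the libraries with cytokines for these 3 genes, and replicate 2 far above. Over both, the log2 fold change was −2.57 ± 0.63 (adjusted p = 0.00244) for Id1, −2.34 ± 0.63 (adjusted p = 0.00478) for Id3 and −5.23 ± 1.25 (adjusted p = 0.00211) for Msx1. Without replicate 2 the values were −0.43, adjusted p = 0.311 for Id1, −0.12, adjusted p = 0.794 for Id3 and 0.31, adjusted p = 0.709 for Msx1.

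Msx2 and Bambi changed direction with the library. Msx2 had 21.8 and 416 counts without and 116 and 126 with cytokines, and Bambi had 72.1 and 704 without and 157 and 178 with cytokines. For both genes the libraries with cytokines lay between the libraries without. Over both libraries neither passed (−0.79 ± 0.84, adjusted p = 0.44 for Msx2 and −1.15 ± 0.60, adjusted p = 0.115 for Bambi). With only replicate 1 without cytokines both were called higher (2.51, adjusted p = 0.00393 for Msx2 and 1.26, adjusted p = 0.00171 for Bambi), and with only replicate 2 both were called lower (−1.74, adjusted p = 0.00962 and −2.03, adjusted p = 5.24e-06). The ratio of replicate 2 to replicate 1 was 93.2 for Msx1, 19.1 for Msx2, 9.77 for Bambi, 8.35 for Id3 and 7.83 for Id1, and 0.59 for Id4 and 0.69 for Smad7. The dorsal neural tube sum differed between the same libraries, and its part in these values was not tested.

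**Figure D3:**
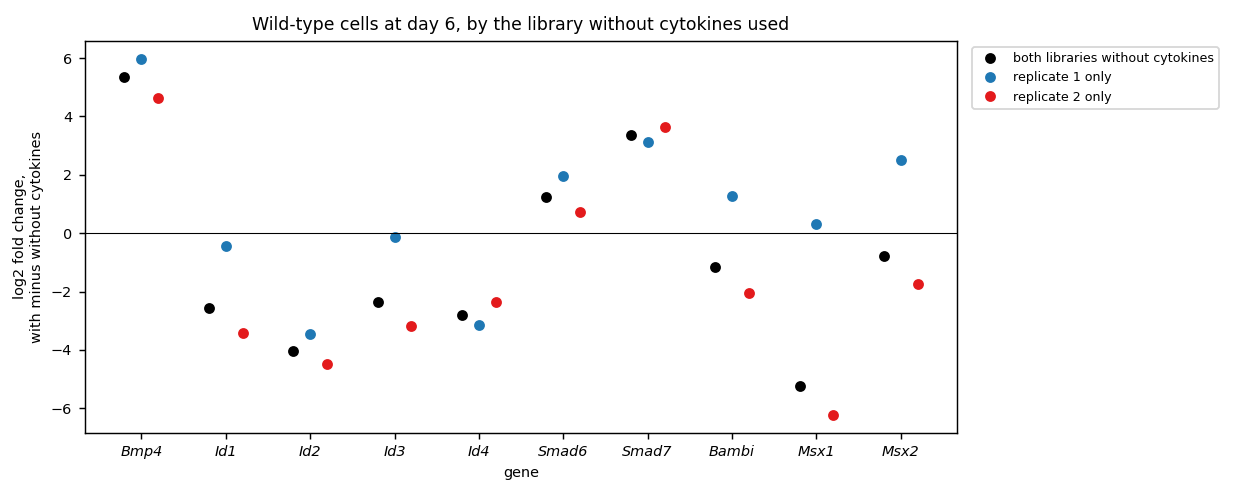
Log2 fold change with against without cytokines in wild-type cells at day 6, with both libraries without cytokines, with replicate 1 only or with replicate 2 only, for the 10 genes. Bmp4, Id2, Id4, Smad6 and Smad7 kept their direction with either library, Id1 (−0.43) and Id3 (−0.12) came near 0 with replicate 1 only, and Msx1, Msx2 and Bambi changed sign.

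Whether the day 6 response differed between genotypes was tested as an interaction, the TKO effect minus the wild-type effect. It passed for 7 of 10 members, where 42.9% of all genes passed. It was positive for Id1 (5.33 ± 0.89, adjusted p = 0.000223), Id2 (4.07 ± 0.81, adjusted p = 0.000899), Id3 (3.40 ± 0.88, adjusted p = 0.00576), Id4 (2.01 ± 0.70, adjusted p = 0.0296) and Msx1 (6.44 ± 1.74, adjusted p = 0.00761) on the log2 scale. It was negative for Bmp4 (−5.69 ± 0.59, adjusted p = 2.93e-06) and Smad7 (−2.46 ± 0.36, adjusted p = 6.73e-05). Without day 6 wild-type replicate 2 without cytokines, Id1 stood at 3.19, adjusted p = 3.34e-05, Id3 at 1.18, adjusted p = 0.0429 and Msx1, which no longer passed, at 0.91, adjusted p = 0.423, while Smad6 (−1.56, adjusted p = 0.00897) and Msx2 (−2.62, adjusted p = 0.0138) passed. Id4 did not pass without any 1 of 4 of the 8 libraries (replicate 1 of either wild-type group, TKO replicate 2 without or TKO replicate 1 with cytokines; adjusted p = 0.0724 to 0.105).

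TKO and wild-type cells were then compared condition by condition. In EpiLCs, before the PGCLC-inducing cytokines were given, Id3 was the member that differed, with 284 and 267 counts in wild-type and 21.8 and 55.0 in TKO cells. Its log2 fold change was −2.82 ± 0.73 (adjusted p = 0.0237), and 0 members were called higher and 1 lower where 7.57% of genes were called higher and 3.18% lower. It was −3.63 to −2.29 with any 1 library left out, with adjusted p values of 0.06 to 0.144. Id2 had 64.3 and 47.8 counts in wild-type and 219 and 40.7 in TKO EpiLCs, and these groups overlapped, although Id2 passed without TKO replicate 2 (2.03, adjusted p = 0.0407). Id1 had 17.7 and 18.9 counts in wild-type and 54.6 and 28.6 in TKO EpiLCs (adjusted p = 0.405).

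At day 2 without cytokines, 3 of 10 members were higher in TKO cells and 0 lower, against 18% and 14.8% of all genes. Bmp4 had 22.4 and 12.4 counts in wild-type and 353 and 538 in TKO aggregates, a log2 fold change of 4.66 ± 0.45 (adjusted p = 2.67e-06). Smad7 had 329 and 174 against 2522 and 2450 (3.28 ± 0.28, adjusted p = 7.08e-07). Id4 had 46.8 and 17.1 against 161 and 202 (2.50 ± 0.54, adjusted p = 0.00261). These 3 calls held whichever of the 4 libraries was left out. Id1 overlapped between genotypes, with 255 and 221 counts in wild-type and 199 and 314 in TKO aggregates.

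At day 6 without cytokines, 3 members were higher in TKO cells and 5 lower, against 28.5% and 26.9% of all genes. This split depended on wild-type replicate 2. Without it Msx1 (0.44), Msx2 (2.88) and Bambi (1.51) turned positive, and Id1 (−0.27) and Id3 (−0.14) came near 0. Bmp4 (5.74 ± 0.48, adjusted p = 1.51e-07) and Smad7 (2.24 ± 0.26, adjusted p = 4.86e-06) were higher, as at day 2. Smad6 was higher by 0.92 ± 0.36 (adjusted p = 0.0418) on the log2 scale, and did not pass without wild-type replicate 1 (0.41, adjusted p = 0.332) or without either TKO library (adjusted p = 0.106 and 0.119). Id4 was lower (−2.21 ± 0.49, adjusted p = 0.00146), the opposite of its direction at day 2. Id2 was lower as well (−1.74 ± 0.55, adjusted p = 0.0146), and did not pass without wild-type replicate 2 (−1.15, adjusted p = 0.0975) or without either TKO library (adjusted p = 0.0711 and 0.0754). Id1 (−2.41, adjusted p = 0.0043), Id3 (−2.37, adjusted p = 0.00512) and Msx1 (−5.10, adjusted p = 0.00317) were lower with both wild-type libraries in the fit. Without wild-type replicate 2 they stood at −0.27, adjusted p = 0.547 for Id1, −0.14, adjusted p = 0.749 for Id3 and 0.44, adjusted p = 0.603 for Msx1, while Msx2 (2.88, adjusted p = 0.00184) and Bambi (1.51, adjusted p = 0.000502) were called higher in TKO cells. Without wild-type replicate 1, Msx2 (−1.38, adjusted p = 0.0368) and Bambi (−1.78, adjusted p = 3.3e-05) were called lower.

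At day 6 with cytokines, 2 of 10 members were higher in TKO aggregates than in sorted wild-type cells and 0 were lower, against 11.3% and 7.53% of all genes. Id1 had 298 and 254 counts in wild-type and 2871 and 1340 in TKO cells (2.93 ± 0.63, adjusted p = 0.00509). Id2 had 63.3 and 102 against 548 and 295 (2.33 ± 0.59, adjusted p = 0.0123). The adjusted p of Id1 was 0.0524 to 0.053 without either wild-type library or TKO replicate 1, and that of Id2 was 0.127 without wild-type replicate 1 and 0.107 without TKO replicate 1. Bmp4 (0.05 ± 0.36, adjusted p = 0.945), Smad7 (−0.22 ± 0.25, adjusted p = 0.579) and Smad6 (0.07 ± 0.35, adjusted p = 0.922) had log2 fold changes near 0 that did not pass.

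Over time, 5 of 10 members passed from EpiLCs to day 2 without cytokines in wild-type cells, where 34.4% of genes did. Id1 (3.72 ± 0.78, adjusted p = 0.00194) and Id2 (3.68 ± 0.63, adjusted p = 0.000433) rose and Smad7 fell (−2.91 ± 0.27, adjusted p = 2.59e-06) on the log2 scale. Id4 (2.30 ± 0.71, adjusted p = 0.021) and Msx2 (adjusted p = 0.0387) also passed, both from few counts in EpiLCs. Msx2 had 2 and 0 raw counts in the wild-type EpiLC libraries and 32.2 and 15.5 normalised counts at day 2. The adjusted p of Id4 and Msx2 was 0.214 and 0.303 without EpiLC replicate 2, 0.231 and 0.153 without day 2 replicate 1, and 0.0578 for Msx2 without EpiLC replicate 1.

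In TKO cells without cytokines, 5 of 10 members were higher at day 2 than in EpiLCs, where 18.7% of genes changed. Bmp4 rose from 65.5 and 103 counts to 353 and 538 (2.39 ± 0.39, adjusted p = 0.00095), while in wild-type cells it stood at 40.2 and 41.1 in EpiLCs and 22.4 and 12.4 at day 2 (−1.20 ± 0.46, adjusted p = 0.0568). Id4 rose from 0 and 11.0 counts to 161 and 202 (adjusted p = 0.000268). These 2 calls held whichever library was left out. Id1 (2.60 ± 0.71, adjusted p = 0.0209), Id3 (2.79 ± 0.73, adjusted p = 0.0167) and Msx2 (adjusted p = 0.0117) passed as well. Id1 and Msx2 did not pass without either EpiLC library or without day 2 replicate 2 (adjusted p = 0.0568 to 0.138 for Id1 and 0.0547 to 0.0905 for Msx2), and Id3 did not without EpiLC replicate 1 or either day 2 library (adjusted p = 0.0504 to 0.117). Id2 passed only without EpiLC replicate 1 (2.82, adjusted p = 0.0128).

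With cytokines, 6 of 10 members were higher in TKO cells at day 2 than in TKO EpiLCs, where 14.3% of genes changed. Id1 rose from 54.6 and 28.6 counts to 1947 and 2266 (5.66 ± 0.75, adjusted p = 0.000166). Id3 rose from 21.8 and 55.0 to 1221 and 1035 (4.89 ± 0.75, adjusted p = 0.000535). Bmp4 (2.15 ± 0.38, adjusted p = 0.00162) and Id4 (4.37 ± 0.70, adjusted p = 0.000759) rose too. Id2 (1.79 ± 0.58, adjusted p = 0.0492) did not pass without EpiLC replicate 2 or either day 2 library (adjusted p = 0.0642 to 0.258), and Msx2 (adjusted p = 0.0104) did not without either EpiLC library (adjusted p = 0.0562 to 0.0899). Without EpiLC replicate 2, Smad6 (1.58, adjusted p = 0.0444) and Smad7 (1.07, adjusted p = 0.0403) passed. Both TKO comparisons share the EpiLC libraries.

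From EpiLCs to the sorted day 6 cells, 6 of 10 members were higher in wild-type cells, where 40.6% of genes changed. Bmp4 (3.22 ± 0.41, adjusted p = 2.84e-05), Id1 (3.93 ± 0.78, adjusted p = 0.00104), Id4 (4.27 ± 0.67, adjusted p = 0.000161), Smad6 (2.13 ± 0.38, adjusted p = 0.000449), Smad7 (1.14 ± 0.25, adjusted p = 0.00233) and Msx2 (adjusted p = 0.00163) passed, whichever of the 4 libraries was left out. Msx2 had 116 and 126 counts in the sorted cells. Id3 (0.73 ± 0.62, adjusted p = 0.369) and Id2 (0.64 ± 0.62, adjusted p = 0.429) did not pass. Sorted wild-type cells thus had more Id1 than EpiLCs, and less Id2 and Id4 than the day 6 cultures without cytokines.

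From day 2 to day 6 without cytokines, 6 of 10 members were higher in wild-type cells, where 39.5% of genes changed. Id4 rose from 46.8 and 17.1 to 1113 and 653 counts (4.77 ± 0.57, adjusted p = 1.28e-05), whichever library was left out. Id1 (2.78, adjusted p = 0.00272), Id3 (1.59, adjusted p = 0.0498), Msx1 (4.76, adjusted p = 0.00599), Msx2 (3.14, adjusted p = 0.0159) and Smad7 (0.69, adjusted p = 0.0447) also passed. Without day 6 replicate 2 Id1 stood at 0.64, Id3 at −0.63, Msx1 at −0.78 and Msx2 at −0.15. Bambi did not pass over both day 6 libraries (1.61 ± 0.62, adjusted p = 0.0503). Its direction depended on the library, with −0.81 without day 6 replicate 2 and 2.49 without day 6 replicate 1. Smad6 did not pass either (0.47 ± 0.37, adjusted p = 0.334), with −0.24 without day 6 replicate 2 and 0.98 without day 6 replicate 1. Without day 2 replicate 1 the adjusted p was 0.25 for Id3, 0.0501 for Msx1 and 0.0504 for Msx2, and without day 2 replicate 2 it was 0.0754, 0.0539 and 0.123, which left 2 of 10. Smad7 had an adjusted p of 0.401 without day 2 replicate 2 and 0.312 without day 6 replicate 1.

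In TKO cells 0 of 10 members passed between day 2 and day 6 without cytokines, where 0.476% of genes did, and 0 of 10 with cytokines, where 6% did. By edgeR and by DESeq2 the number of members with an unadjusted p below 0.05 was 0 in both. By edgeR 1456 genes without and 3548 with cytokines were below that limit. Id1 with cytokines differed by 0.00 ± 0.59 and Bmp4 without cytokines by 0.15 ± 0.36 on the log2 scale.

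Ordered by mean normalised count over the 9 conditions, few neighbouring pairs passed the quasi-likelihood test. It estimates each gene's spread from all conditions together, as in the comparisons above, so it does not measure the spread of a pair alone. For Id1, Id3, Msx1, Msx2 and Bambi that estimate includes the day 6 wild-type libraries without cytokines, which lay far apart. For Id1 the order was TKO day 2 with cytokines (2107), TKO day 6 with (2105), wild-type day 6 without (1692), TKO day 6 without (314), wild-type day 6 with (276), TKO day 2 without (256), wild-type day 2 without (238), TKO EpiLCs (41.6) and wild-type EpiLCs (18.3). Of its 8 neighbouring pairs 2 passed, wild-type against TKO day 6 without cytokines and wild-type day 2 against TKO EpiLCs. The place of wild-type day 6 without cytokines, and the first of these tests, rested on replicate 2 (383 and 3000 counts, and −0.27, adjusted p = 0.547 without it), as did that condition's first place for Msx1 (12.7 and 1182). For Bmp4, 1 of 8 passed, between 5 conditions at 369.5 to 491 and TKO EpiLCs at 84.4. For Smad7, 2 of 8 passed, which set wild-type day 6 (414) and day 2 (251) without cytokines below the other 7 (1934 to 4144). Id4 had 3 such pairs, Id3 and Msx1 had 1 each, and Id2, Smad6, Msx2 and Bambi had 0.

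Over the 18 libraries, on the scale of log2(CPM + 1), Bmp4 and Smad7 had a Pearson r of 0.82, Id1 and Msx2 0.81, Id1 and Id3 0.80, and Id2 and Smad7 −0.56. Among 12190 genes with a mean count of 50 or more, Mreg (0.97) and Tead4 (0.96) were among the 3 with the highest r with Bmp4. For Id1 the highest were Gtf2b (0.94), Plin2 (0.91), Etfdh (0.91), and for Msx2 Hadha (0.93), Sri (0.89), Galnt4 (0.87). The libraries share 9 conditions in pairs, and these values are a description.

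Other genes of the pathway were taken from lists. The list of extracellular antagonists and modulators holds genes whose products keep BMP ligands from their receptors, and others that do not. In TKO cells 3 of its 16 tested genes were called lower at day 2 and 4 of 16 at day 6, and 0 higher. Of all genes 2.47% and 3.05% were called lower. Noggin (Nog) had 72.7 and 150.2 counts without and 22.7 and 16.1 with cytokines at day 2 (−2.49 ± 0.56, adjusted p = 0.0229). At day 6 Nog had 87.2 and 130 without and 31.9 and 13.8 with cytokines (−2.27 ± 0.56, adjusted p = 0.0301). Follistatin (Fst), which binds activins most tightly and also some BMPs, had 405 and 918 counts without and 201 and 32.3 with cytokines at day 2 (−2.48 ± 0.61, adjusted p = 0.0345), and 465 and 659 against 20.2 and 11.5 at day 6 (−5.18 ± 0.78, adjusted p = 0.00195). Both genes were lower in each TKO library with cytokines than in each one without at the same day.

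The other antagonists called lower in TKO cells, gremlin 1 (Grem1) and Cer1, had mean counts below 50 and are named after their values were seen. Grem1 had 78.9 and 90.1 counts without and 0 and 0 with cytokines at day 2 (adjusted p = 0.00216), and 86.1 and 139 against 10.1 and 1.15 at day 6 (adjusted p = 0.00627). Cer1 had 47.4 and 51.7 counts without and 0 and 0 with cytokines at day 6 (adjusted p = 0.00783). A count of 0 allows a level of up to 3 counts in a library.

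In wild-type cells at day 6, 1 of the 16 antagonists and modulators was higher and 8 lower with cytokines. Of all genes 29.6% were called higher and 28.6% lower. Nog had 166 and 189.9 counts without and 2.78 and 6.44 with cytokines (−5.18 ± 0.63, adjusted p = 5.1e-06), and Chrd, which encodes Chordin, had 225 and 98.4 against 27.8 and 27.7 (−2.51 ± 0.38, adjusted p = 4.28e-05; −1.79, adjusted p = 0.000432 without replicate 1 lacking cytokines). Fstl1 was lower as well (−1.43 ± 0.29, adjusted p = 0.000622).

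Of the receptors and co-receptors 0 of 11 were called in TKO cells at either day, and of the other ligands 0 of 9, by edgeR. Of all genes 2.05% were called higher and 2.47% lower at day 2, and 2.56% and 3.05% at day 6. At an unadjusted p below 0.05 there were 3922 of all 16582 genes tested at day 2 and 3756 at day 6. Of the 11 receptors there were 2 at each day, Bmpr2 (−0.87 ± 0.38, adjusted p = 0.184) and Acvr1 (−0.94 ± 0.29, adjusted p = 0.0733) at day 2 and Bmpr1b (−1.32 ± 0.47, adjusted p = 0.111) and Rgma (−1.13 ± 0.48, adjusted p = 0.179) at day 6. From the ligand list there was 1, Bmp1 (1.22 ± 0.35, adjusted p = 0.0576 at day 2 and 0.94 ± 0.35, adjusted p = 0.122 at day 6). It was listed by its name, but encodes a protease that cleaves Chordin and not a ligand. In wild-type cells 1 receptor gene was higher and 7 of 11 lower, against 29.6% and 28.6% of all genes. Endoglin (Eng), a co-receptor, had 8.16 and 9.26 counts without and 522 and 734 with cytokines (6.22 ± 0.40, adjusted p = 8.04e-09). The type I receptor Bmpr1b had 474 and 677 against 5.56 and 8.37 (−6.30 ± 0.43, adjusted p = 1.39e-08). The co-receptors Rgma (−5.30 ± 0.48, adjusted p = 2.25e-07) and Rgmb (−2.87 ± 0.43, adjusted p = 3.67e-05) were lower. Without replicate 1 lacking cytokines Rgma stood at −4.16, adjusted p = 9.6e-09 and Rgmb at −1.59, adjusted p = 4.1e-05.

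In the list of other ligands, which includes the protease gene Bmp1, 2 of 9 were higher and 5 lower in wild-type cells, against 29.6% and 28.6% of all genes. Gdf3 had 4.53 and 1.16 counts without and 741 and 647 with cytokines (adjusted p = 6.47e-09). Gdf7, a roof plate ligand, had 24.9 and 828 counts without and 7.65 and 3.22 with cytokines (−6.23 ± 1.16, adjusted p = 0.000296), and replicate 2 without cytokines was far above replicate 1, as for Msx1. Without replicate 2 Gdf7 stood at −2.14, adjusted p = 0.00983. Bmp1 (−4.27 ± 0.40, adjusted p = 2.99e-07) and Bmp7 (−1.51 ± 0.30, adjusted p = 0.000583) were lower.

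Of 10 signal transducers and regulators, 3 were higher and 5 lower in wild-type cells with cytokines, against 29.6% and 28.6% of all genes. Smad5 (−1.60 ± 0.18, adjusted p = 2.79e-06) and Smad1 (−1.01 ± 0.15, adjusted p = 4.25e-05), which carry the signal, were lower. Zfp423, a DNA-binding partner of SMADs, was lower (−3.50 ± 0.38, adjusted p = 1.71e-06), and Skil, a SMAD corepressor, was higher (1.48 ± 0.22, adjusted p = 4.19e-05). In TKO cells 0 of 10 were called at day 2 and 1 at day 6, Zfp423, which was lower (−1.41 ± 0.36, adjusted p = 0.034). Its day 2 value did not pass (−1.11 ± 0.36, adjusted p = 0.0804), and it was the 1 gene of this list with an unadjusted p below 0.05 at that day. Of all 16582 genes tested, 3922 were below that limit at day 2.

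Of 10 other genes known to respond to BMP, 3 were higher and 3 lower in wild-type cells, near the 29.6% and 28.6% of all genes. The median log2 fold change of these genes was −1.19, but 1.16 without replicate 1 lacking cytokines and −1.33 without replicate 2. In TKO cells 0 were higher and 2 lower at each day, where 2.47% (day 2) and 3.05% (day 6) of all genes were called lower. Hand1, a mesoderm factor, had 1 and 0 raw counts without and 17 and 61 with cytokines in wild-type cells (adjusted p = 0.000186). Tbx3, a T-box repressor, had 93.8 and 4.63 normalised counts without and 2183 and 4063 with cytokines in wild-type cells (5.84 ± 0.70, adjusted p = 4.17e-06; 9.40, adjusted p = 2.93e-08 without replicate 1 lacking cytokines). In TKO cells at day 6 it had 2524 and 2163 without and 7223 and 7322 with cytokines, which did not pass (1.65 ± 0.57, adjusted p = 0.0997). Tfap2a, a surface ectoderm and neural crest factor, was lower with cytokines in wild-type cells (−3.30 ± 0.34, adjusted p = 9.44e-07) and in TKO cells at day 2 (−2.42 ± 0.33, adjusted p = 0.00129) and day 6 (−2.65 ± 0.33, adjusted p = 0.000635). The other gene called lower in TKO cells was the homeobox gene Dlx5, named after its values were seen, with 67.5 and 138 counts without and 0 and 4.97 with cytokines at day 2 (adjusted p = 0.00858) and 141 and 160.3 against 0 and 2.30 at day 6 (adjusted p = 0.0033).

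ID proteins act by binding E proteins. Of the 3 E protein genes, Tcf4 was lower with cytokines in wild-type cells (−1.62 ± 0.20, adjusted p = 4.76e-06) and in TKO cells at day 2 (−1.26 ± 0.20, adjusted p = 0.0035) and day 6 (−1.01 ± 0.20, adjusted p = 0.00951). In TKO cells at day 2 Tcf4 had 624 and 661 counts without and 246 and 283 with cytokines. Tcf12 was lower in wild-type cells (−3.44 ± 0.20, adjusted p = 3.18e-09), with −0.56 ± 0.19, adjusted p = 0.0927 in TKO cells at day 6, and Tcf3 did not pass in any of the 3 comparisons.

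**Figure D4:**
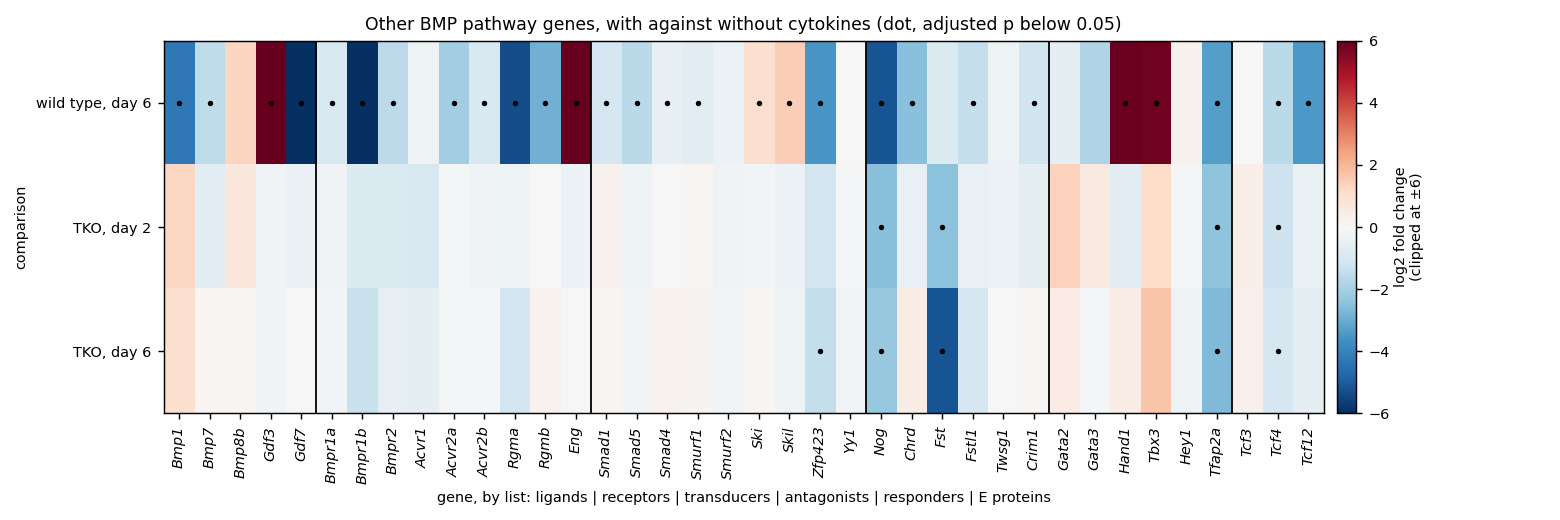
Log2 fold change with against without cytokines, coloured from −6 to 6, for 38 other BMP pathway genes with a mean normalised count of 50 or more in the 3 comparisons, with a dot for an adjusted p below 0.05. Most dots are in the wild-type comparison, and Nog, Fst, Tfap2a and Tcf4 carry a dot and are lower with cytokines in both TKO comparisons.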

How the data were processed

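RNA depleted of ribosomal RNA was sequenced from directional libraries, 2 for each of 9 conditions. The labels do not say that replicates came from separate cultures, so p-values measure the spread between these libraries. The authors trimmed reads with Trim Galore 0.5.0 and cutadapt 1.16, aligned them to mm10 with STAR 2.7.1a and counted fragments on refGene exons with featureCounts (Subread 1.5.2), without strand, and neither multimapping nor multi-gene fragments were counted. The deposited values are raw counts per gene, and 33 comment rows were left out.

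Genes were filtered with filterByExpr (edgeR 4.0.16, limma 3.58.1, R 4.3.3), scaled by TMM and fitted in 1 quasi-likelihood model of 9 group means over 18 libraries. Comparisons were tested by edgeR's quasi-likelihood F statistic (the quasi-likelihood test), p-values were adjusted after Benjamini and Hochberg over the 16582 genes, and a gene was called at an adjusted p below 0.05. Standard errors are log2 fold changes over the root of that F. With 2 libraries a group no exact test of 1 gene can reach 0.05, so the tests borrow spread across genes and conditions. Normalised counts used size factors of DESeq2 1.42.0. The fit was also run on counts simulated from its own fitted means and dispersions, which cannot show that it holds for these libraries.

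The members, the lists and the rules were chosen with earlier results of these data known. Genes named were the 10 members, of each pathway list up to 4 called genes a comparison with a mean normalised count of 50 or more and the largest log2 fold changes, and the 3 genes with the highest Pearson r with Id1, Msx2 and Bmp4. Genes named in receptor and ligand lists for an unadjusted p were named after their values were seen. Alternatives were RLE factors, library size alone, no filter, a mean CPM of 1, leaving out Rn45s, DESeq2's Wald test, a fit restricted to the compared libraries, a replicate block, the study's limit of a log2 fold change beyond 2, and each library left out. A crossed block was added after seeing the data. A few genes that the rule names are not reported here. Positions and promoters are from RefSeq on GRCm38.p6.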

Additional observations from a re-analysis of the deposited data

Results flagged for a closer look

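For 7 of the 10 members the effect of the cytokines at day 6 differed between TKO and wild-type cells by edgeR's interaction test, which 42.9% of all genes passed. The TKO effect minus the wild-type effect was 6.44 for Msx1, 5.33 for Id1, 4.07 for Id2, 3.40 for Id3 and 2.01 for Id4, and −2.46 for Smad7 and −5.69 for Bmp4, on the log2 scale. In wild-type cells this effect compares sorted cells with whole cultures, and in TKO cells whole cultures on both sides, so sorting and genotype cannot be told apart in these values. Without day 6 wild-type replicate 2 without cytokines, Msx1 stood at 0.91, Id1 at 3.19 and Id3 at 1.175. Id4 stood at 1.57 to 2.34 with any 1 library left out, and its call did not hold in each case.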

How the results depend on the processing

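The limits are 2 libraries a group, a sorted arm in wild-type cells and 1 TKO clone. Beside the settings that left out a library, 130 counts of called members stayed within 1.5 times the main count and 16 did not, and of the log2 fold changes of members in the 5 cytokine comparisons and interactions 377 kept direction and call, 9 lost and 9 gained a call and 5 changed sign. The cause was not tested. With library size alone the median of all genes moved to −0.28 in wild-type cells and −0.48 and −0.49 in TKO cells at days 2 and 6, and Msx2 (−0.32) and Bambi (−0.40) at TKO day 2 and Id2 (−0.50) and Smad6 (−0.14) at TKO day 6 changed sign. Id2 at TKO day 6 was −0.032 when the compared libraries were modelled alone.

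Of 10 members, TKO cells with cytokines at day 6 had 1 called in place of 2 with RLE factors, library size alone, a mean CPM of 1 or a log2 fold change beyond 2. TKO against wild-type EpiLCs had 2 in place of 1 with library size alone or no filter. With no filter, TKO day 2 with cytokines had 2 in place of 1, and TKO against wild type at day 2 had 6 in place of 3. Modelling the compared libraries alone called 4 in place of 8 for cytokines in wild-type cells, 4 in place of 1 in TKO cells at day 2, 6 in place of 3 for TKO against wild type at day 2, 4 in place of 8 at day 6 without and 4 in place of 2 with cytokines, 1 in place of 6 for wild-type day 2 to day 6, and 2 and 1 in place of 0 for TKO day 2 to day 6 without and with cytokines.

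Leaving out 1 library gave 7 to 9 called for cytokines in wild-type cells, 0 in TKO cells at day 2, 0 to 1 at day 6, 6 to 8 for the genotype interaction and 0 for the day interaction. TKO against wild type had 0 to 1 in EpiLCs, 3 at day 2, 6 to 9 at day 6 without and 0 to 2 with cytokines. Over time, wild-type cells had 3 to 5 from EpiLCs to day 2, 2 to 7 from day 2 to day 6 and 6 to the sorted cells, and TKO cells had 2 to 4 without and 5 to 6 with cytokines to day 2, and 0 from day 2 to day 6. Among the cytokine comparisons and interactions, the log2 fold changes that changed sign were those of Bambi (−2.03 to 1.26), Msx1 (−6.22 to 0.31) and Msx2 (−1.74 to 2.51) in wild-type cells, Bambi (−0.14 to 0.25), Bmp4 (−0.592 to 0.091) and Msx2 (−0.31 to 0.59) at TKO day 2, Id2 (−0.49 to 0.42) and Msx2 (−0.97 to 0.45) at TKO day 6, Bambi (−0.53 to 2.77) and Msx2 (−2.62 to 1.63) in the genotype interaction, and Bmp4 (−0.51 to 0.26), Id1 (−0.96 to 0.16), Id4 (−0.31 to 0.14), Msx1 (−0.93 to 0.68) and Msx2 (−1.09 to 0.33) in the day interaction. In the comparisons of genotype and time, members that had been called and changed sign were Msx1 for TKO against wild type at day 6 without cytokines (0.44) and Id3 (−0.63), Msx1 (−0.78) and Msx2 (−0.15) from day 2 to day 6 in wild-type cells, all without day 6 wild-type replicate 2. Others that had not been called changed sign as well, among them Id2 in EpiLCs, which went from 1.28 to −0.39 without TKO replicate 1.

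The labels do not say that a replicate number marks a shared batch, and deviations of same-numbered libraries had an r of −0.24 to 0.34. With the replicate number as a block, 8 members were called for cytokines in wild-type cells, 1 and 2 in TKO cells at days 2 and 6 and 7 for the genotype interaction, as without it, and 5 in place of 6 from day 2 to day 6 in wild-type cells and from EpiLCs to day 2 with cytokines in TKO cells. A crossed pairing, added after seeing the data, called 8 for cytokines in wild-type cells and 5 from EpiLCs to day 2 without cytokines in TKO cells.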
